A study of Xenopus laevis with 6 samples.

Results

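The baseline transcriptome of the Xenopus laevis gastrula was described from 3 whole embryos that had received no injection, out of 6 embryos sequenced singly in the study. These 3 were chosen by their treatment label alone, and no library from a dkk-injected embryo was used. The study asked which genes respond to a knockdown of canonical Wnt signalling during gastrulation, and the uninjected embryos were its controls. All 3 embryos were at stage 11.5, when the blastopore has formed and the germ layers are moving into place, and they carried no transgene, allele or agent named in the labels. Embryos 1, 2 and 3 came from mating pairs 1, 2 and 3, so that each library was 1 embryo of a different mating. Embryo, clutch and library therefore cannot be told apart in any difference between them.

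During gastrulation the mesoderm and endoderm move inside the embryo while the ectoderm spreads over its surface. The dorsal lip, or organizer, secretes antagonists of Bmp and Wnt ligands and so sets up the dorsal and anterior fates, while Wnt, Fgf and Nodal ligands around the blastopore pattern the mesoderm. Zygotic transcription is well under way at this time, and maternal RNA laid down in the oocyte is still being cleared. Xenopus laevis is an allotetraploid frog with many genes present as a long (.L) and a short (.S) homeolog, here counted as separate rows, and a row whose name ends in a number without either letter names neither copy.

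Reads assigned to genes numbered 17460820, 19481603 and 18772049 in embryos 1, 2 and 3. A level is given in CPM, the reads of a gene row per 1000000 reads in gene rows of the same embryo, and values are listed in the order embryo 1, embryo 2 and embryo 3 throughout. CPM grows with transcript length, and no transcript lengths were at hand, so levels are compared between embryos for 1 row. Where rows are ranked or classed by CPM, or an L row is set beside its S row, the values count reads and are not corrected for length. In a whole embryo, fewer cells of a type and less RNA per cell cannot be told apart. A row without reads in an embryo allowed up to 3 reads, or 0.154 to 0.172 CPM depending on the embryo, by counting error alone.

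A normal gastrula held RNA of a broad set of genes. Of 45099 gene rows, 34061 had at least 1 read in some embryo, 26803 had reads in all 3 and 11038 had none. A level of 1 CPM or more in all 3 embryos was reached by 17649 rows, 39.1% of all rows, and by 11035 of the 17326 rows that carried a gene symbol, 63.7% of those. Single embryos had 19328, 18854 and 19568 rows at 1 CPM or more. The median level of the 17649 rows was 17.2 CPM.

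Reads were spread widely over these rows. The 1175 rows with most reads held 50% of them, 3609 rows held 75% and 7275 rows held 90%. The class with most reads was that of the 2235 rows between 100 and 1000 CPM, which held 48.8% to 50.2% of reads, whereas 84 rows at 1000 CPM or more held 14.6% to 15.6%. The 10 rows with most reads together took 3.26%, 3.64% and 3.47% of the reads in genes (3.46% ± 0.19, SD, n = 3).

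**Figure D1:**
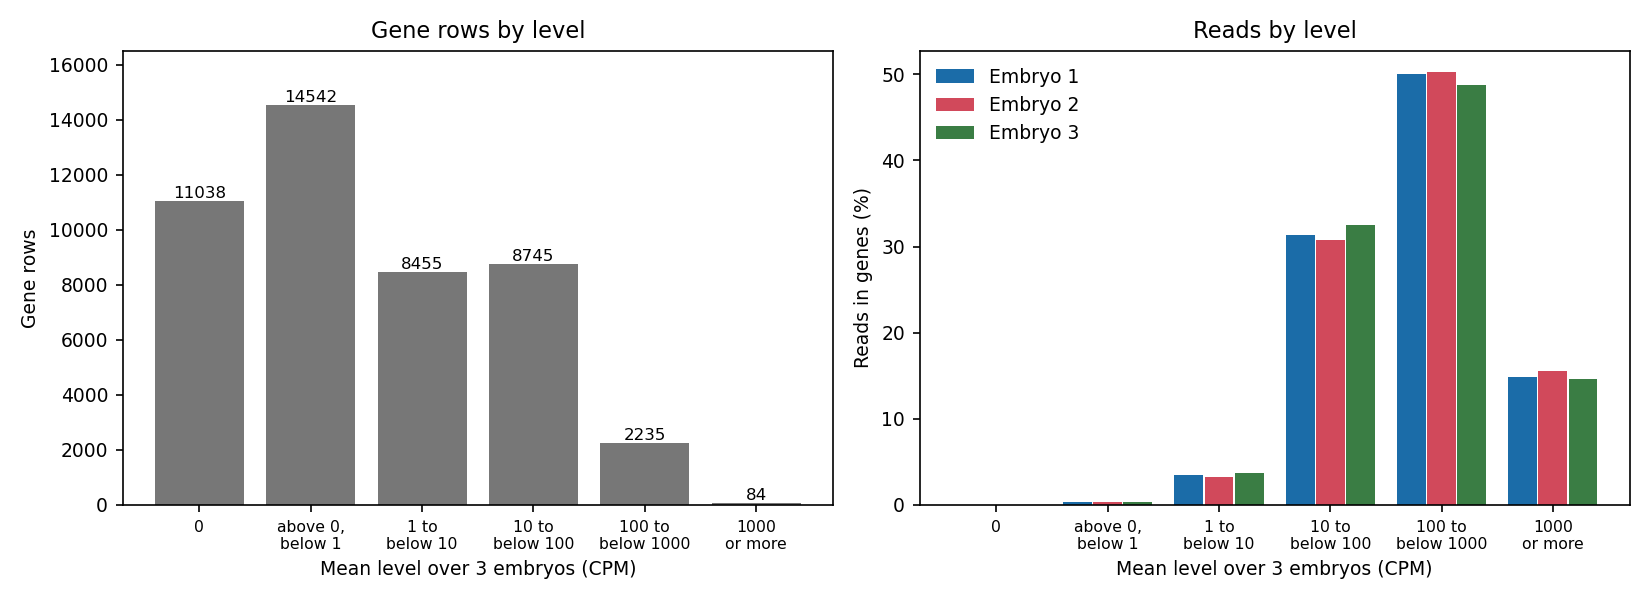
Left, the number of gene rows in each class of mean CPM over the 3 embryos, with 11038 rows at 0 and 84 at 1000 CPM or more. Right, the share of reads in genes (%) in the same classes for each embryo, where the class from 100 to below 1000 CPM held 48.8% to 50.2%.

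The rows with a symbol among those with most reads included RNA-binding, splicing and chaperone genes. Of the 15 rows with most reads, 8 carried a symbol and the other 7 only an identifier, the latter with 1810.1 to 4433 CPM in single embryos. The cold-inducible RNA-binding protein gene had both copies among them, with cirbp.L at 4015, 4214 and 4048 CPM and cirbp.S at 3353, 3851 and 3769 CPM. The SR splicing factor row srsf2.L had 2711, 2912 and 3104 CPM and the hnRNP row hnrnpa1.S had 2693, 2849 and 2904 CPM. These 4 rows were close to even between the embryos. The histone chaperone and phosphatase regulator family row anp32c.S had 2537, 2539 and 3027 CPM.

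The chaperone rows and 1 row without a symbol were less even. That row, Xelaev18026704m.g, had 3094, 2308 and 1810.1 CPM, at a ratio of 1.71 and highest in embryo 1. Constitutive Hsc70 is encoded by hspa8, of which hspa8.L had 2138, 3244 and 3449.9 CPM and hspa8.S had 2235, 3419.8 and 3016 CPM. Cytosolic Hsp90 beta is encoded by hsp90ab1, and hsp90ab1.S had 1886, 3404 and 2777 CPM. All 3 chaperone rows were lowest in embryo 1, by 1.61-, 1.53- and 1.81-fold against the highest embryo. Summed over gene names, heat shock proteins of the 70 and 90 kDa families took 0.774%, 1.17% and 1.08% of reads, hnRNP proteins 1.48%, 1.61% and 1.60%, and SR splicing factors 1.03%, 1.096% and 1.07%. The 60 rows named as cytosolic ribosomal proteins of the rpl and rps series took 0.515%, 0.727% and 0.633%, also with the least in embryo 1. Rows with only an identifier could not enter these sums and may hold further members, so the shares may be too low.

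Chosen marker lists for the germ layers, the organizer, signalling pathways and other cell types held 739 distinct rows. Of these, 494 reached 1 CPM in all 3 embryos and 366 had a mean of 10 CPM or more. Over all rows with a symbol, 63.7% reached 1 CPM in all 3 embryos, the share to set beside each list count below. Of the 366, 41 had a highest embryo more than 2 times the lowest. Of all 11064 rows of mean 10 CPM or more, 1837 did so, which is 16.6%. Among the 7227 such rows with a symbol, 1091 did so, 15.1%. The listed count depended on the scaling. On TMM library sizes and DESeq2 size factors it was 51 and 52, with 1863 and 1857 over all rows. Counts of single lists moved too, and those below are on library totals unless stated. On both scalings the mesoderm count was 3 beside 1, endoderm 5 beside 3, non-neural ectoderm 7 beside 4 and Nodal 3 beside 2. The maternal and pluripotency count fell to 2 from 4. Of the 605 symbols in the lists, 423 had a row. Genes such as otx2, chrd, sox3, vegt and ctnnb1 had no row under those names and are not described.

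Mesoderm regulators were broadly present, with 43 of 47 rows at 1 CPM or more in all 3 embryos and 31 at a mean of 10 CPM or more. Brachyury, the T-box factor that marks the whole early mesoderm, had 299, 312 and 338 CPM for t.L and 525, 475 and 489.6 CPM for t.S. The ratio of the highest to the lowest embryo was 1.13 for t.L and 1.105 for t.S. The T-box factor Eomes had 62.7, 64.9 and 80.2 CPM for eomes.L and 79.5, 69.2 and 67.01 CPM for eomes.S. Caudal homeobox genes of the posterior body were at 185, 176 and 147 CPM for cdx4.L and 128, 124 and 101 CPM for cdx4.S. The cdx2 gene had 231, 247 and 197 CPM for cdx2.L and 114, 132 and 111 CPM for cdx2.S. Nearly all cdx1 reads were in the S copy, with cdx1.S at 355, 353 and 255 CPM and cdx1.L at 8.71, 7.55 and 5.06 CPM. The cdx rows just named were each lowest in embryo 3.

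Skeletal muscle determination genes were measurable in all 3 embryos. The myogenic factor row myod1.S had 67.1, 75.1 and 83.3 CPM and myod1.L had 21.8, 24.998 and 19.9 CPM, while its relative myf5.L had 51.7, 38.4 and 45.01 CPM and myf5.S had 29.6, 31.2 and 44.1 CPM. Mesogenin, a bHLH factor of presomitic mesoderm, had 45.1, 58.4 and 59.2 CPM for msgn1.L and 58.9, 54.97 and 70.8 CPM for msgn1.S. The zinc finger repressor snai1.S had 63.7, 108 and 93.01 CPM and was lowest in embryo 1. The forkhead factor foxc1.S, of paraxial mesoderm, had 77.9, 60.9 and 41.3 CPM and its L copy 37.3, 31.3 and 25.3 CPM, both lowest in embryo 3. Somite-related meox2.L had 14.1, 9.86 and 7.405 CPM and meox2.S had 3.78, 4.16 and 6.13 CPM.

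Ventral and lateral mesoderm genes included the widest ratio among the mesoderm list rows of mean 10 CPM or more. Sizzled, a secreted inhibitor of the proteases that cleave Chordin, had 28.5, 77.7 and 48.2 CPM for szl.L and 50.8, 87.6 and 65.8 CPM for szl.S. Both rows were lowest in embryo 1 and highest in embryo 2. At a ratio of 2.73, szl.L was the 1 mesoderm row of mean 10 CPM or more over 2-fold. The lateral plate forkhead factor foxf1 had 4.47, 11.1 and 7.78 CPM for foxf1.L and 3.67, 9.39 and 4.47 CPM for foxf1.S, again highest in embryo 2. The heart and limb factor hand2 was close to the floor, with 0.286, 0.462 and 1.17 CPM for hand2.L and 1.78, 1.13 and 2.13 CPM for hand2.S. Over the 31 mesoderm rows of mean 10 CPM or more, the median ratio of the highest to the lowest embryo was 1.31, against 1.45 over all 11064 such rows.

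Organizer and axial mesoderm genes were present at 36 of 42 rows. Cerberus, a secreted antagonist of Nodal, Bmp and Wnt ligands, had 281, 323 and 284 CPM for cer1.S and 99.8, 78.7 and 75.6 CPM for cer1.L. The notochord and floor plate factor foxa4 had 187, 206 and 203 CPM for foxa4.L and 119, 137 and 139 CPM for foxa4.S. Frzb, a secreted Wnt antagonist, had 94.2, 92.1 and 81.2 CPM for frzb.L and 124, 115 and 157 CPM for frzb.S. The secreted kinase gene pkdcc.1, which is expressed in the organizer, had 90.1, 108 and 102 CPM for pkdcc.1.L and 22.5, 24.8 and 29.1 CPM for pkdcc.1.S. None of these 8 rows exceeded 1.5-fold between the embryos.

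Transcription factors of the organizer followed. The LIM homeobox gene lhx1 had 41.8, 45.6 and 61.3 CPM for lhx1.L and 71.8, 81.2 and 104 CPM for lhx1.S. The notochord homeobox gene not had 31.96, 43.7 and 61.95 CPM for not.L and 50.8, 63.5 and 73.6 CPM for not.S. Goosecoid, the classic organizer homeobox gene, had 14.03, 16.9 and 15.2 CPM for gsc.L and 7.503, 9.701 and 12.1 CPM for gsc.S. All 6 of these rows were lowest in embryo 1. The forkhead factor foxa2, shared by axial mesoderm and endoderm, had 17.2, 26.9 and 17.1 CPM for foxa2.L and 59.96, 61.9 and 30.4 CPM for foxa2.S. Its S copy was lowest in embryo 3. At a ratio of 2.04, it was the 1 organizer row of mean 10 CPM or more over 2-fold.

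Secreted signals of the organizer were also read in every embryo. Noggin had 8.82, 13.8 and 16.5 CPM for nog.L and 1.37, 1.54 and 1.598 CPM for nog.1. Follistatin had 11.3, 21.2 and 16.8 CPM for fst.L and 10.7, 13.3 and 8.26 CPM for fst.S. Sonic hedgehog, the ligand of the axial midline, had 4.35, 5.75 and 5.49 CPM for shh.L and 10.7, 11.8 and 16.2 CPM for shh.S. The nog.L and shh.S rows were lowest in embryo 1, and fst.L was also lowest in embryo 1. Of the 31 organizer rows of mean 10 CPM or more, 22 were lowest in embryo 1, where 39.5% of all such rows were lowest. On TMM library sizes, which correct for differences in composition, the count was 21 against 38.9%.

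Endoderm genes were at 1 CPM or more in 30 of 38 rows, and 29 had a mean of 10 CPM or more. The HMG-box factor Sox17, which specifies endoderm, had 136, 143 and 93.3 CPM for sox17a.L and 156, 146 and 86.8 CPM for sox17a.S. Its relative sox17b.1 had 86.9, 94.7 and 74.05 CPM for sox17b.1.L and 108, 108 and 59.1 CPM for sox17b.1.S. The GATA factor gata4 had 114, 131 and 82.3 CPM for gata4.L and 115, 110.2 and 64.9 CPM for gata4.S. All 6 rows were lowest in embryo 3. The alpha-2-macroglobulin family gene row a2m.S was also lowest in embryo 3, with 1167, 1055 and 681 CPM, and a2m.L stayed at or below 0.103 CPM.

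Other endoderm regulators varied in their order between the embryos. The homeobox gene mixer, a Nodal-dependent endoderm factor, had 191, 139 and 158 CPM for mixer.L and 59.2, 70.4 and 53.8 CPM for mixer.S, the latter lowest in embryo 3. Its relative mix1 had 21.6, 20.3 and 22.001 CPM for mix1.L and 13.3, 25.3 and 23.2 CPM for mix1.S. The factor gata6 had 79.95, 100.1 and 86.4 CPM for gata6.L and 82.5, 96.8 and 90.5 CPM for gata6.S, both lowest in embryo 1. Over 2-fold among rows of mean 10 CPM or more were foxa2.S, lefty.L and the pioneer factor row foxa1.S. The foxa1.S row had 32.4, 47.8 and 16.8 CPM while foxa1.L had 26.7, 30.6 and 28.98 CPM. Both foxa1.S and foxa2.S were lowest in embryo 3. The pancreas gene pdx1 stayed under 1 CPM in every embryo for both copies.

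Non-neural ectoderm genes were at 1 CPM or more in 36 of 39 rows, and 17 of them had a mean of 100 CPM or more. Epcam, an adhesion protein of epithelia, had 486, 726 and 785 CPM for epcam.L and 1007, 1136 and 1364 CPM for epcam.S. Both copies were lowest in embryo 1. The simple-epithelium keratins were at 1013, 1094 and 801 CPM for krt8.L and 429, 685 and 510.1 CPM for krt8.S. Their partner keratin had 576, 550.5 and 344 CPM for krt18.L and 189, 233 and 157 CPM for krt18.S. The row krt.S had 927, 1038 and 708 CPM and krt.L had 165, 200.3 and 155 CPM. The L copies of krt8 and krt18 and both krt rows were lowest in embryo 3, as was krt18.S. The rows krt5.7.L and krt5.7.S, among the symbol rows with most reads, had 1060.3, 1229.8 and 831 CPM and 1671, 1519 and 1194 CPM, also lowest in embryo 3.

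Surface-layer and epidermal regulators were present beside the keratins. Grainyhead-like 3, a factor of the epidermal barrier, had 336, 254 and 209 CPM for grhl3.L and 282, 233 and 145 CPM for grhl3.1. The related grhl2.L had 44.04, 35.9 and 18.1 CPM and grhl2.S had 8.82, 5.18 and 4.53 CPM. The ectodermal forkhead gene foxi4.2 had 124, 144 and 166 CPM for foxi4.2.L and 160.1, 184 and 176 CPM for foxi4.2.S. Distal-less gene dlx3 had 36.02, 34.3 and 40.6 CPM and 68.9, 92.1 and 84.4 CPM for L and S, and dlx5 had 52.1, 55.1 and 45.7 CPM and 65.6, 103 and 87.6 CPM. Uroplakin upk3b.L, a membrane protein of epithelia, had 273, 220.5 and 242 CPM. The basal epidermal factor p63 had 30.9, 27.9 and 12.7 CPM for tp63.S, lowest in embryo 3, and 0.573, 0.205 and 0.266 CPM for tp63.L.

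The 4 rows of this list over 2-fold among those of mean 10 CPM or more were not alike in order. Keratin krt12.S had 394, 187 and 135 CPM and krt12.L had 10.1, 4.62 and 5.65 CPM, both highest in embryo 1. Besides grhl2.L and tp63.S, the row of intelectin itln1.L, a secreted lectin of the embryonic epidermis, had 5.61, 18.02 and 6.77 CPM and was highest in embryo 2, while itln1.S had 0.115, 0.667 and 0.586 CPM. The cilia master regulator foxj1 had 16.1, 21.8 and 11.1 CPM for foxj1.L and 27.3, 31.98 and 20.8 CPM for foxj1.S.

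Neural plate and neural border genes were at 1 CPM or more in 43 of 49 rows. Geminin, an inhibitor of replication licensing that also acts in early neural ectoderm, had 123, 121 and 153 CPM for gmnn.L and 279, 295 and 423 CPM for gmnn.S. The zinc finger factor zic1 had 97.4, 96.96 and 98.9 CPM for zic1.L and 162, 158 and 163 CPM for zic1.S. The neural progenitor factor row sox2.1 had 46.5, 47.9 and 48.5 CPM. These 3 rows were nearly level, at ratios of 1.02 for zic1.L, 1.03 for zic1.S and 1.04 for sox2.1. SoxC factor sox11 had 206, 170.2 and 116 CPM for sox11.L and 89.1, 65.6 and 51.5 CPM for sox11.S, highest in embryo 1 and lowest in embryo 3.

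Regional neural genes were also measurable. The anterior homeobox gene otx1 had 66.1, 94.8 and 53.1 CPM for otx1.L and 19.1, 30.95 and 19.5 CPM for otx1.S, highest in embryo 2. The neural plate forkhead gene foxd4l1.1 had 57.1, 60.1 and 75.2 CPM for foxd4l1.1.L and 58.4, 66.7 and 83.4 CPM for foxd4l1.1.S. Iroquois genes irx1 and irx2 had 40.5, 45.7 and 49.9 CPM for irx1.L and 67.7, 74.2 and 70.8 CPM for irx2.L. Neural crest factor foxd3 had 10.3, 19.5 and 24.7 CPM for foxd3.L and 7.04, 8.93 and 15.2 CPM for foxd3.S, lowest in embryo 1, and both rows exceeded 2-fold. The forebrain and eye genes six3 and rax were read in all embryos, with six3.L at 2.86, 5.54 and 1.54 CPM, six3.S at 4.47, 7.13 and 2.29 CPM and rax.S at 5.38, 3.75 and 1.49 CPM. Migrating neural crest is marked by sox10, and both of its rows were under 1 CPM in every embryo.

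**Figure D2:**
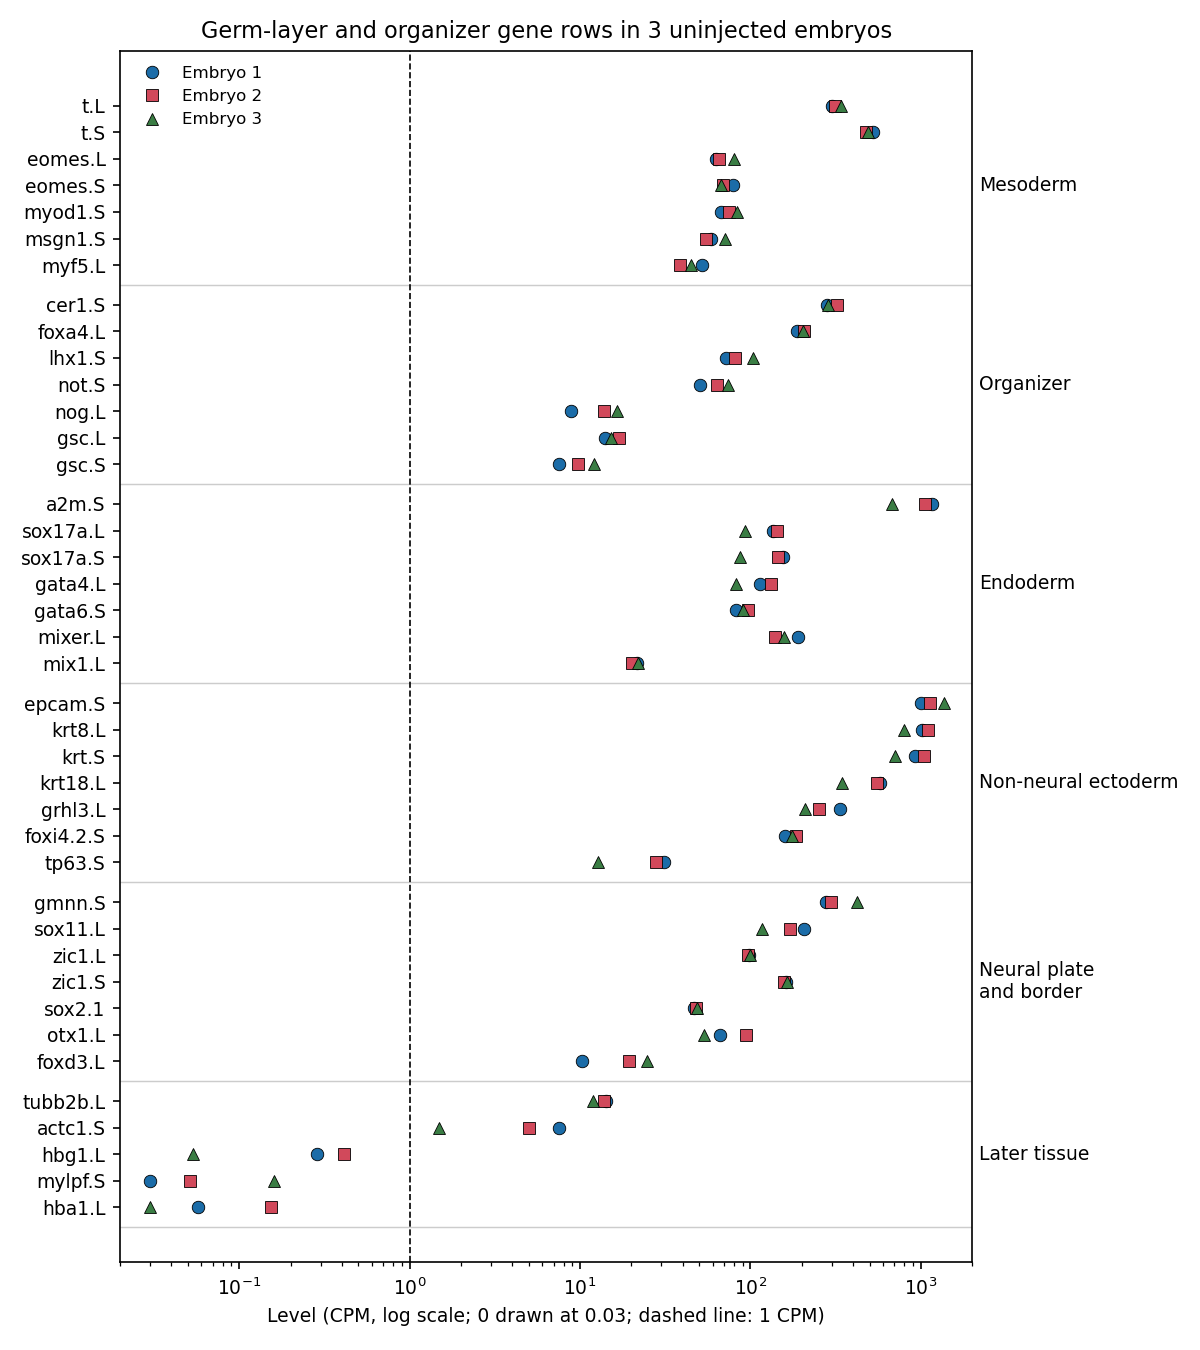
CPM of selected germ-layer, organizer and later-tissue rows in each of the 3 embryos on a log axis, with 1 marker per embryo, values of 0 drawn at 0.03 and a dashed line at 1 CPM. Both copies of t, sox17a and eomes lie above 60 CPM in every embryo, and hbg1.L, mylpf.S and hba1.L lie below 1 CPM in every embryo.

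The labels of whole embryo and gastrula stage were set beside markers. Defining genes of all 3 germ layers were read in every embryo, and most genes of differentiated tissues were at or near the floor. Of 50 later-tissue rows, 36 were below 1 CPM in all 3 embryos, 15 had no read in any and 7 reached 1 CPM in all 3. The summed level of the list was 66.5, 61.1 and 56.4 CPM. No read was found for the neuronal factor neurod1 in either copy, the cardiac peptide nppa in either copy, the globins hba1.S, hbg1.S and hbd.S, or the lens crystallin cryba1.L. Rows with reads included the tubulin tubb2b.L with 14.3, 13.8 and 11.9 CPM, tubb2b.S with 3.61, 0.821 and 0.799 CPM and the row of myelin basic protein, mbp.S, with 9.11, 14.5 and 18.96 CPM and mbp.L with 0.515, 1.44 and 2.66 CPM.

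Contractile and globin genes were uneven at these low levels. Cardiac alpha actin had 7.56, 5.03 and 1.49 CPM for actc1.S and 0.687, 0.565 and 0.1598 CPM for actc1.L. Cardiac myosin heavy chain had 4.98, 2.67 and 1.705 CPM for myh6.L and 8.88, 1.64 and 1.28 CPM for myh6.S. Each of the actc1.S, myh6.L and myh6.S rows was highest in embryo 1 and lowest in embryo 3. Muscle creatine kinase ckm.L had 3.84, 9.29 and 2.72 CPM, highest in embryo 2, and ckm.S stayed under 1 CPM in every embryo. The troponin row tnnc2.L ran the other way from the actin and myosin rows, with 0.687, 2.57 and 4.31 CPM, lowest in embryo 1 and highest in embryo 3. Of the globin rows with reads, hbd.L had 4.24, 0.76996 and 0.959 CPM, highest in embryo 1, and hba1.L had 0.0573, 0.154 and 0 CPM.

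Blood and endothelial genes were at 1 CPM or more in 11 of 27 rows. The apelin receptor aplnr, which is also expressed in gastrula mesoderm, had 93.5, 111 and 108 CPM for aplnr.L and 67.4, 70.1 and 64.8 CPM for aplnr.S. The homeobox gene hhex, shared with anterior endoderm, had 24.2, 26.1 and 29.5 CPM for hhex.L and 39.7, 32.9 and 32.8 CPM for hhex.S. The bZIP factor cebpa had 16.5, 33.6 and 59.4 CPM for cebpa.L and 30.6, 42.5 and 42.6 CPM for cebpa.1, lowest in embryo 1. The endothelial receptor row tek.S had 8.65, 8.11 and 18.3 CPM, highest in embryo 3, and tek.L stayed under 1 CPM in every embryo. The haemangioblast factor etv2 had 4.696, 12.5 and 12.4 CPM for etv2.L and 5.67, 12.2 and 10.01 CPM for etv2.S. The erythroid and blood factors gata1 and tal1 stayed under 1 CPM in every embryo in both copies.

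Homeotic genes, which give cells their position along the body axis, had few rows above the floor. Of 64 Hox rows, 8 reached 1 CPM in all 3 embryos, 49 were below it in all 3 and 12 had no read. The hoxd1 gene had 102, 95.6 and 73.8 CPM for hoxd1.L and 98.6, 87.8 and 76.3 CPM for hoxd1.S. These were the only Hox rows with a mean of 10 CPM or more, and both were lowest in embryo 3. From the B cluster, hoxb3.S had 6.07, 7.24 and 5.01 CPM and hoxb6.S had 5.15, 6.11 and 2.66 CPM, while hoxb6.L had no read and hoxb3.L stayed under 1 CPM in every embryo.

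Wnt signalling genes covered both branches of the pathway. In the canonical branch, ligand binding to Frizzled and Lrp receptors stabilises β-catenin, and in the planar polarity branch, Wnt11- and Wnt5-type ligands act through Ror2, Ptk7 and other receptors on cell movement. Of 81 rows for ligands, receptors and extracellular modulators, 52 were at 1 CPM or more in all 3 embryos. That is 64.2%, near the 63.7% of all rows with a symbol. Among the ligands, wnt8a, a ventrolateral mesoderm signal, had 80.7, 70.4 and 93.97 CPM for wnt8a.L and 62.6, 50.8 and 76.5 CPM for wnt8a.S, both lowest in embryo 2. The maternal and gastrula ligand row wnt11b.L had 157, 138 and 178 CPM. The wnt5b rows had 86.7, 84.8 and 70.3 CPM for wnt5b.1 and 74.1, 81.5 and 70.4 CPM for wnt5b.S. The row wnt11.L had 4.52, 12.4 and 8.74 CPM and wnt11.S had 19.1, 20.7 and 12.9 CPM. Among canonical ligands of later neural tissue, wnt8b.S had 12.9, 4.62 and 10.3 CPM and wnt8b.L stayed under 1 CPM in every embryo. The wnt3a rows were close to the floor, with 1.49, 0.462 and 0.1598 CPM for wnt3a.L and 2.004, 0.565 and 1.54 CPM for wnt3a.S, and both wnt1 rows stayed under 1 CPM in every embryo.

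Receptors and co-receptors were well represented. The pseudokinase receptor ptk7 had 445, 407 and 445 CPM for ptk7.L and 128, 129 and 170.5 CPM for ptk7.S, and the receptor kinase ror2 had 237, 223 and 201 CPM for ror2.L and 113, 99.2 and 77.7 CPM for ror2.S. Among the Frizzled genes, fzd10 had 142, 148 and 125 CPM for fzd10.L and 74.8, 78.2 and 64.8 CPM for fzd10.S. The fzd8 rows had 25.5, 40.4 and 38.7 CPM for fzd8.L and 52.5, 81.6 and 80.8 CPM for fzd8.S, lowest in embryo 1. Receptor gene fzd3 was uneven in 1 copy, with 32.1, 27.9 and 11.1 CPM for fzd3.S and 14.8, 12.1 and 16.5 CPM for fzd3.L. The co-receptor lrp6 had 50.2, 48.1 and 54.2 CPM for lrp6.S and 35.2, 30.3 and 24.6 CPM for lrp6.1.

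Modulators of Wnt signalling were uneven in some rows. Dickkopf 1, the Lrp5/6 antagonist, had 12.8, 16.8 and 18.4 CPM for dkk1.L and 11.7, 18.8 and 14.6 CPM for dkk1.S, lowest in embryo 1. Its receptor kremen2 had 34.5, 11.2 and 10.7 CPM for kremen2.L and 23.5, 15.9 and 10.7 CPM for kremen2.S, and both were highest in embryo 1, at a ratio of 3.24 for the L copy. The secreted agonist rspo2 had 29.4, 15.2 and 17.95 CPM for rspo2.L and 14.1, 7.44 and 8.15 CPM for rspo2.S, highest in embryo 1 as well. Porcupine, which lipidates Wnt ligands, had 21.02, 38.3 and 48.5 CPM for porcn.L, lowest in embryo 1. The extracellular deacylase notum had 34.8, 25.9 and 29.6 CPM for notum.L and 36.9, 44.3 and 22.3 CPM for notum.S. The 4 rows over 2-fold among those of mean 10 CPM or more were kremen2.L, kremen2.S, fzd3.S and porcn.L.

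Intracellular components and common targets of canonical Wnt signalling were at 1 CPM or more in 37 of 43 rows. The zinc finger targets had 505, 491 and 513 CPM for sp5l.L and 409, 438 and 418 CPM for sp5l.S, and sp5.L had 64.8, 69.5 and 84.97 CPM and sp5.S 22.5, 8.98 and 13.4 CPM. The repressing Tcf factor tcf7l1 had 195, 253 and 217 CPM for tcf7l1.L and 179.9, 257 and 189.6 CPM for tcf7l1.S. Its activating relatives had 45.99, 32.9 and 38.7 CPM for tcf7.S and 37.3, 24.8 and 25.8 CPM for lef1.L. The kinase gene gsk3a had 187, 221 and 228 CPM for gsk3a.L and 181, 196 and 165 CPM for gsk3a.S, and gsk3b.S had 47.8, 59.9 and 62.4 CPM. Axin2, a feedback inhibitor, had 60.1, 88.4 and 56.04 CPM for axin2.L, highest in embryo 2, and 6.07, 6.21 and 5.17 CPM for axin2.S. The scaffold apc had 32.2, 13.2 and 23.97 CPM for apc.L and 14.3, 6.47 and 10.8 CPM for apc.S, both highest in embryo 1 and lowest in embryo 2. Cyclin D1 had 12.9, 13.04 and 29.03 CPM for ccnd1.L, highest in embryo 3, and 33.6, 35.1 and 43.9 CPM for ccnd1.S.

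Bmp signalling genes, which specify ventral mesoderm and epidermis, were at 1 CPM or more in 49 of 61 rows. The ligand bmp4 had 78.9, 85.4 and 85.02 CPM for bmp4.L and 120.3, 152 and 121 CPM for bmp4.S, bmp7.1.L had 43.3, 47.6 and 45.2 CPM and bmp2.S had 10.5, 13.3 and 10.6 CPM. The dorsal Bmp ligand admp had 63.4, 82.6 and 59.02 CPM for admp.L and 56.98, 67.2 and 38.04 CPM for admp.S, and the related admp2.L had 24.97, 47.4 and 15.5 CPM. All 3 of these admp rows were highest in embryo 2 and lowest in embryo 3. The type I receptors had 47.2, 30.3 and 35.6 CPM for bmpr1a.L, 99.9, 62.98 and 77.8 CPM for bmpr1a.1 and 57.8, 62.7 and 67.7 CPM for acvr1.S. The transducer smad1 had 38.5, 45.8 and 40.5 CPM for smad1.L and 28.6, 28.2 and 33.9 CPM for smad1.S.

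Many feedback and target rows of Bmp signalling were highest in embryo 2. The pseudoreceptor bambi had 179, 246 and 179 CPM for bambi.L and 105, 136 and 115 CPM for bambi.S. The ventral homeobox repressor ventx1.2 had 67.98, 130.4 and 96.8 CPM for ventx1.2.L and 65.2, 105 and 82.5 CPM for ventx1.2.S, and ventx1.1 had 51.4, 69.2 and 57.8 CPM and 64.5, 112 and 74.5 CPM for L and S. The related ventx3.2 had 16.7, 41.2 and 27.5 CPM for ventx3.2.L and 33.96, 66.01 and 39.3 CPM for ventx3.2.S. Homeobox gene msx1 had 140.4, 170.2 and 143 CPM for msx1.L and 96.2, 109 and 87.04 CPM for msx1.S, and msx2.L had 100.5, 109 and 95.7 CPM and msx2.S 67.2, 40.1 and 74.4 CPM. The inhibitory HLH gene id2 had 117, 154 and 96.5 CPM for id2.L and 75.8, 62.8 and 70.3 CPM for id2.S. Both copies of bambi, ventx1.1, ventx1.2, ventx3.2 and msx1, with id2.L and msx2.L, were highest in embryo 2, whereas msx2.S was lowest in embryo 2 and id2.S was highest in embryo 1. In the whole list, 26 of 39 rows of mean 10 CPM or more were highest in embryo 2, where 21.9% of all such rows were highest, and on TMM library sizes 28 of 39 against 35.6%.

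Nodal signalling genes were at 1 CPM or more in 25 of 41 rows, 61.0% beside 63.7% of all rows with a symbol. Nodal ligands induce mesoderm and endoderm in the blastula. The ligand nodal had 7.22, 7.905 and 10.8 CPM for nodal.L and 1.203, 0.565 and 1.81 CPM for nodal.S, and nodal1, nodal2 and nodal6 rows stayed under 1 CPM in every embryo. The TGFβ-family ligand row gdf3.1 had 109.7, 119 and 142 CPM. The antagonist Lefty had 14.4, 28.1 and 37.3 CPM for lefty.L and 9.22, 16.6 and 16.3 CPM for lefty.S, lowest in embryo 1. The EGF-CFC co-receptor tdgf1.3 had 166, 202 and 167 CPM for tdgf1.3.L and 21.9, 44.8 and 47.4 CPM for tdgf1.3.S. Receptor genes had 87.7, 111 and 84.5 CPM for acvr2b.S, 6.76, 6.98 and 4.85 CPM for acvr2b.L, 48.9, 29.7 and 42.1 CPM for acvr1b.L and 21.4, 20.1 and 20.3 CPM for acvr1b.S. The nuclear partner of Smad2, foxh1, had 35.5, 44.6 and 33.7 CPM for foxh1.L and 2.41, 3.18 and 1.598 CPM for foxh1.S, with 19.4, 27.2 and 38.5 CPM for foxh1.2.L. Only lefty.L and tdgf1.3.S exceeded 2-fold among the 19 rows of mean 10 CPM or more, at ratios of 2.598 and 2.16, and both were lowest in embryo 1.

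Fgf signalling, which maintains mesoderm through the MAP kinase cascade, had 37 of 54 rows at 1 CPM or more. That is 68.5%, beside 63.7% of all rows with a symbol. Ligand rows included fgf8.L with 40.3, 37.1 and 46.2 CPM and fgf8.S with 14.03, 15.9 and 19.1 CPM, fgf3.S with 13.7, 12.6 and 8.31 CPM and fgf16.L with 15.1, 14.7 and 18.4 CPM. The receptor fgfr1 had 136, 135 and 121 CPM for fgfr1.L and 73.7, 74.2 and 72.1 CPM for fgfr1.S. The fgfr4 rows had 227, 278 and 218 CPM for fgfr4.L and 222, 258 and 261 CPM for fgfr4.S, and fgfr2 had 126, 124 and 101 CPM for fgfr2.L and 98.7, 115 and 97.9 CPM for fgfr2.S. The docking adaptor frs2 had 115, 109.7 and 105 CPM for frs2.L and 72.8, 69.9 and 70.4 CPM for frs2.S. Feedback phosphatases had 62.1, 72.1 and 87.2 CPM for dusp5.L, 23.997, 31.8 and 42.1 CPM for dusp5.S, 14.3, 16.99 and 23.1 CPM for dusp6.L and 20.1, 26.5 and 37.5 CPM for dusp6.S, all 4 lowest in embryo 1. Sprouty, another feedback inhibitor, had 37.4, 34.2 and 52.2 CPM for spry2.L and 20.7, 13.1 and 9.75 CPM for spry4.S, while spry4.L had 11.2, 9.496 and 9.91 CPM. The spry4.S row was highest in embryo 1 and was the 1 Fgf row of mean 10 CPM or more over 2-fold.

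Retinoic acid enzymes and receptors were at 1 CPM or more in 19 of 28 rows, 67.9% beside 63.7% of all rows with a symbol. The synthesising dehydrogenase aldh1a2 had 179, 185 and 188 CPM for aldh1a2.L and 159, 128 and 162 CPM for aldh1a2.S. The preceding enzyme rdh10 had 242, 334 and 318 CPM for rdh10.1 and 67.8, 69.3 and 98.6 CPM for rdh10.S, and the opposing reductase dhrs3 had 118, 134 and 141 CPM for dhrs3.L and 104, 110.5 and 145 CPM for dhrs3.S. The degrading enzyme cyp26a1 had 181, 201 and 154 CPM for cyp26a1.L and 189.8, 243 and 191 CPM for cyp26a1.S, highest in embryo 2. Receptor rows rxrb.L and rxrb.S had 132, 130.1 and 128 CPM and 109, 108 and 103 CPM, and rara.S had 67.2, 73.6 and 57.8 CPM. The corepressor ncor1 had 74.5, 36.1 and 29.4 CPM for ncor1.L and 53.7, 31.9 and 20.3 CPM for ncor1.S. Both ncor1 rows were highest in embryo 1 and lowest in embryo 3. They were the 2 rows of the list over 2-fold among those of mean 10 CPM or more.

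Notch signalling, which acts between neighbouring cells, had 30 of 36 rows at 1 CPM or more. The ligand gene dll1 had 113, 102 and 93.97 CPM for dll1.L and 103, 96.96 and 101 CPM for dll1.S. The ligand row dlc.L had 137, 242 and 196 CPM, lowest in embryo 1 and highest in embryo 2, and dlc.S had 6.41, 6.72 and 4.95 CPM. The ligand jag1 had 17.6, 11.1 and 8.204 CPM for jag1.L and 3.21, 3.901 and 2.08 CPM for jag1.S. The receptor notch1 had 135, 122 and 115 CPM for notch1.L and 159.7, 130.3 and 129 CPM for notch1.S. The glycosyltransferase lfng had 141, 128 and 118 CPM for lfng.L and 88.1, 77.1 and 75.1 CPM for lfng.S, and the ligand ubiquitin ligase mib1 had 107, 70.2 and 66.9 CPM for mib1.L and 97.4, 62.9 and 65.2 CPM for mib1.S, highest in embryo 1. Among Hes genes, hes6.1.L had 109, 136 and 113 CPM and hes6.1.S had 145, 123 and 153 CPM. The hes3.1 rows had 21.7, 39.2 and 26.2 CPM for hes3.1.L and 51.3, 46.1 and 48.3 CPM for hes3.1.S, and hes5.1 had 19.5, 17.7 and 15.7 CPM for hes5.1.L and 8.88, 15.04 and 7.56 CPM for hes5.1.S.

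**Figure D3:**
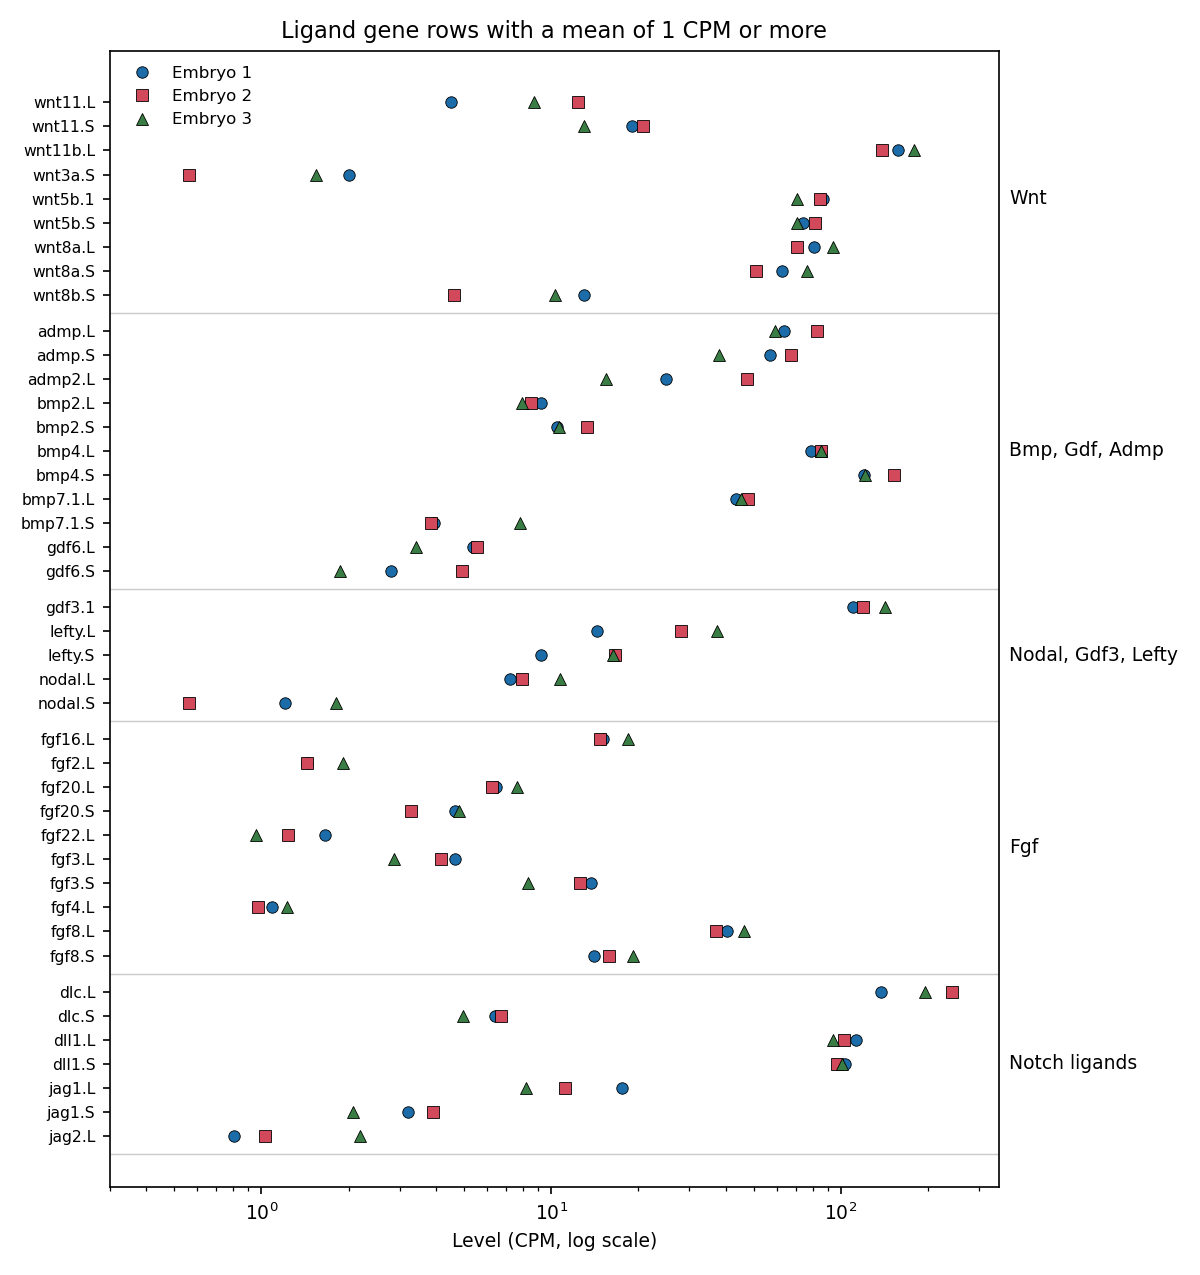
CPM of Wnt, Bmp, Nodal, Fgf and Notch ligand and Lefty rows with a mean of 1 CPM or more, on a log axis, with 1 marker per embryo. The bmp4 and dll1 rows lie close together over the 3 embryos, and wnt8a.S has a ratio of 1.51. Rows that spread by over 2-fold include admp2.L, lefty.L, wnt11.L and wnt8b.S.

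Genes for cell adhesion, matrix and gastrulation movements were at 1 CPM or more in 45 of 50 rows. Fibronectin, which lines the blastocoel roof, had 787, 739 and 614 CPM for fn1.L and 847, 765 and 860.5 CPM for fn1.S. Its receptor subunit itga5 had 175, 186 and 141 CPM for itga5.L and 34.7, 32.5 and 37.2 CPM for itga5.S. C-cadherin, the blastomere cadherin, had 639, 509.6 and 741 CPM for cdh3.L and 303, 222 and 248 CPM for cdh3.S. E-cadherin of the ectoderm had 261, 240.4 and 183 CPM for cdh1.S and 0.802, 1.39 and 1.81 CPM for cdh1.L.

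The small GTPases had 365, 433 and 490.3 CPM for rhoa.L, 281, 309 and 372 CPM for rhoa.S, 363, 346 and 391 CPM for rac1.L and 112, 122 and 140.3 CPM for rac1.S. Both rhoa rows were lowest in embryo 1. The planar polarity gene prickle1 had 89.9, 73.5 and 106 CPM for prickle1.L and 131, 126 and 133 CPM for prickle1.S.

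The 3 widest ratios among the adhesion list rows of mean 10 CPM or more were those of basement membrane rows. Laminin beta 1 had 156, 139 and 107 CPM for lamb1.L and 161, 124 and 48.1 CPM for lamb1.S, both lowest in embryo 3. Nidogen nid1.S had 12.6, 17.8 and 1.28 CPM, lowest in embryo 3 at a ratio of 13.9, and nid1.L had 0.458, 0.359 and 0.533 CPM. Collagen XVIII had 116, 51.5 and 48.8 CPM for col18a1.L and 17.6, 9.29 and 4.05 CPM for col18a1.S, highest in embryo 1 in both copies. Of the 41 adhesion rows of mean 10 CPM or more, 7 exceeded 2-fold, 17.1% beside 16.6% of all rows.

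Maternal and cell cycle genes were abundant in reads, with 34 of 38 rows at 1 CPM or more. With 1 stage only, RNA laid down in the oocyte and RNA made by the embryo cannot be told apart. Cyclin E1 had 186, 292 and 276 CPM for ccne1.L and 419, 507 and 569 CPM for ccne1.S. Cyclin A2 had 346, 482 and 451 CPM for ccna2.L and 109, 138 and 135 CPM for ccna2.S. All 4 of these cyclin rows were lowest in embryo 1. The RNA-binding pluripotency regulator lin28a had 246, 337 and 329.9 CPM for lin28a.L and 248, 232 and 373 CPM for lin28a.S. The zinc finger factor sall1 had 451, 385 and 467 CPM for sall1.L and 189, 145 and 152 CPM for sall1.S. Oocyte linker histone h1foo.S had 115, 126 and 162 CPM, and the pluripotency factor pou5f3.3 had 8.13, 7.19 and 14.9 CPM for pou5f3.3.L and 3.67, 4.77 and 14.2 CPM for pou5f3.3.S, highest in embryo 3 in all 3 rows. The other copy, h1foo.L, had 8.36, 7.802 and 6.98 CPM, highest in embryo 1, and did not pass the test against counting error alone (chi-square test of Poisson homogeneity, Benjamini-Hochberg adjusted p = 0.351).

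Several oocyte rows were lowest in embryo 1 and highest in embryo 3, and other rows of the list were not. Egg coat glycoproteins had 68.8, 108 and 135 CPM for zp2.L, 37.9, 57.9 and 80.1 CPM for zp3.1, 13.9, 16.7 and 23.7 CPM for zp4.L and 14.2, 21.7 and 31.9 CPM for zp4.S. Zygote arrest 1, a translational regulator, had 26.4, 45.5 and 58.5 CPM for zar1.S and 3.04, 4.06 and 3.995 CPM for zar1.L. The oocyte kinase mos.L had 12.2, 15.8 and 19.3 CPM. List rows of mean below 10 CPM went both ways. The ccna1.L, ccna1.S and foxr1.L rows were lowest in embryo 1 and highest in embryo 3. Both cpeb1 rows were highest in embryo 2 and lowest in embryo 3. The bcl6.S row was highest in embryo 1 and lowest in embryo 3, and both btg4 rows were lowest in embryo 2. The rows zp2.L, zp3.1, zp4.L, zp4.S, zar1.S and mos.L were lowest in embryo 1 and highest in embryo 3, and zp3.1, zar1.S and zp4.S exceeded 2-fold at ratios of 2.11, 2.22 and 2.25. Of the 25 maternal and pluripotency rows of mean 10 CPM or more, 17 were highest in embryo 3, beside 44.8% of all rows. On TMM library sizes 13 were, beside 29.9%.

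Germ plasm and germ cell genes were at 1 CPM or more in 14 of 16 rows, some of them even and others uneven between the embryos. The Vasa helicase gene had 122, 138 and 129.9 CPM for ddx4.L and 3.44, 2.98 and 2.88 CPM for ddx4.1, and the germ plasm organiser velo1.L had 17.4, 17.97 and 17.5 CPM. By contrast, the RNA-binding protein gene dazl.L had 20.8, 42.9 and 5.59 CPM, the helicase ddx25.L had 30.2, 58.8 and 10.6 CPM and the scaffold grip2.L had 11.1, 13.8 and 2.18 CPM. These 3 rows were highest in embryo 2 and lowest in embryo 3, at ratios of 7.67, 5.55 and 6.299, the last on a mean of 9.02 CPM. The piRNA-pathway row piwil1.L had 10.3, 1.75 and 1.44 CPM, highest in embryo 1, while piwil2.L had 19.4, 22.8 and 27.3 CPM. The translational repressor nanos1.L had 4.93, 11.1 and 6.23 CPM and dnd1.L had 8.02, 8.06 and 4.69 CPM. The factor prdm14 had 23.7, 20.99 and 39.5 CPM for prdm14.L and 30.6, 32.6 and 37.2 CPM for prdm14.S.

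Both homeologs of most listed genes contributed reads. For 217 symbols with an L and an S row and at least 100 reads in each embryo, the median share of reads from the L copy was 53.5%, beside 54.7% over all 3619 such symbols. The L copy held over 90% of the reads for 14 symbols and under 10% for 12, and 76 lay between 40% and 60%. The L share was 36.3%, 39.7% and 40.8% for Brachyury, 46.5%, 49.5% and 51.8% for sox17a, 61.2%, 60.1% and 59.4% for foxa4 and 36.8%, 35.98% and 37.1% for lhx1. Nearly all reads were in the S copy for a2m, cdh1 (0.306%, 0.573% and 0.982%) and cdx1 (2.39%, 2.09% and 1.95%), and to the L copy for admp2 (99.1%, 99.4% and 98.6%) and dlc (95.5%, 97.3% and 97.5%). The share differed by a median of 6.23 percentage points between the highest and lowest embryo, and by over 20 points for 8 symbols. Largest was the somite factor mespa, with 44.8%, 83.4% and 78.2%, on 2.69, 6.21 and 6.87 CPM for mespa.L and 3.32, 1.23 and 1.92 CPM for mespa.S. Reads that matched both copies were not counted, so these shares rest on the reads that told them apart, and they were not corrected for the length of each copy.

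The 3 embryos resembled each other across genes and differed beyond counting error for most rows. Pearson's r of log2(CPM + 1) over 19519 rows of mean 1 CPM or more, given as a description across genes, was 0.955 for embryos 1 and 2, 0.939 for 1 and 3 and 0.959 for 2 and 3. More than 2-fold apart were 751, 1347 and 658 of the 11064 rows of mean 10 CPM or more in those pairs. The median coefficient of variation over the 3 embryos was 31.5% for rows of 1 to below 10 CPM, 20.5% from 10 to below 100 CPM, 15.4% from 100 to below 1000 CPM and 10.4% at 1000 CPM or more. The coefficient of variation expected from counting error alone, calculated from each row's mean level, had medians of 12.5%, 4.36%, 1.81% and 0.603% in those classes. edgeR's common biological coefficient of variation, the spread beyond counting error, was 0.310 over 19364 rows.

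A test of each row's 3 counts against equal levels, with Poisson counting error alone and Benjamini-Hochberg adjustment, passed 0.05 for 16781 of 21615 rows with 30 reads or more, 77.6%. Of the 11064 rows of mean 10 CPM or more, 10028 passed, 90.6%. This test compares these 3 libraries and not clutches, since each mating gave 1 uninjected embryo. It passed for 41 of 45 mesoderm rows tested, 31 of 38 organizer rows, 29 of 31 endoderm rows, 36 of 37 non-neural ectoderm rows and 33 of 46 neural rows. Rows that did not pass included zic1.L, zic1.S, sox2.1, gsc.L, mix1.L, dll1.S, aldh1a2.L and fgfr1.S, which does not show that their levels were equal.

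Of the 1837 rows over 2-fold, embryo 1 was the one apart for 852, embryo 3 for 706 and embryo 2 for 279, taking the embryo farthest from the middle one on the log scale. Without embryo 1 the count of rows over 2-fold was 664, without embryo 3 it was 753 and without embryo 2 it was 1370, each over the other pair of embryos. Among the listed rows the count was 41 with all embryos, 12 without embryo 1, 30 without embryo 2 and 14 without embryo 3. The symbol rows of mean 10 CPM or more with the largest ratios were scarce in 1 or 2 embryos. Nucleotidase nt5c1a.S had 63.7, 25.97 and 0.1598 CPM, and the monooxygenase agmo.L had 24.2, 10.8 and 0.213 CPM. The adhesion gene sdk2.S had 1.32, 80.9 and 96.6 CPM, the incretin gene gip.S had 8.02, 37.8 and 0.639 CPM and the esterase nceh1.S had 0.573, 21.05 and 16.5 CPM. Angiopoietin angpt4.S had 1.49, 41.2 and 17.7 CPM, the phosphatase tmem55a.L 32.6, 65.1 and 2.93 CPM and the patched-domain gene ptchd1.S 40.4, 2.26 and 40.6 CPM. Caspase casp10.L had 2.29, 36.5 and 22.2 CPM and the kinase map3k15.L had 43.8, 2.87 and 10.01 CPM. No single embryo was the low one in all 10 of these rows.

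Of the 5 most even symbol rows of mean 100 CPM or more, the 14-3-3 row ywhab.L had 173, 171 and 171 CPM, the purine synthesis enzyme ppat.L 195, 198 and 197 CPM and the nuclear pore row nup50.S 208, 209 and 212 CPM. The rows lsr-like.1.S and rtfdc1.S had 130.3, 132 and 131 CPM and 174, 176 and 178 CPM. All 5 had ratios of 1.01 to 1.02, with coefficients of variation of 0.554% to 0.966%.

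**Figure D4:**
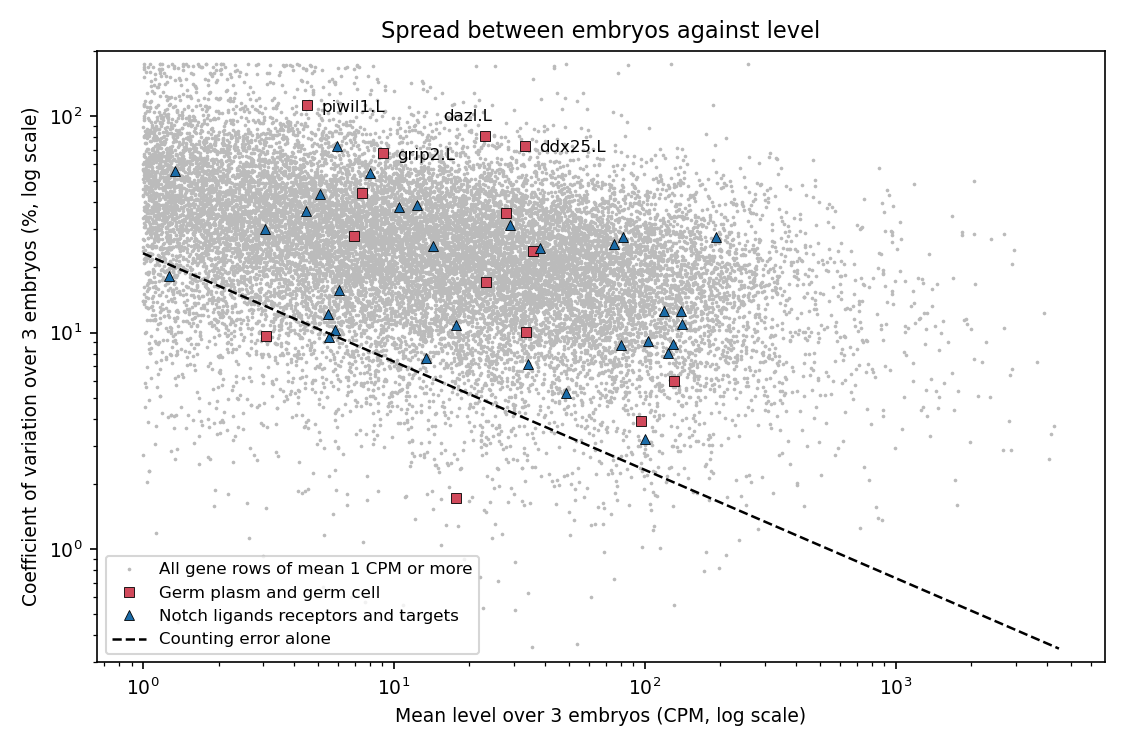
Coefficient of variation over the 3 embryos (%) against mean CPM, both on log axes, for all rows of mean 1 CPM or more (grey), germ plasm rows (red squares) and Notch pathway rows (blue triangles), with counting error alone as a dashed line. The germ plasm rows dazl.L, ddx25.L, grip2.L and piwil1.L lie above most grey points of their level, at 81.2%, 73.05%, 67.2% and 112%.

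The lists took different positions in the 3 embryos. For each list the median of log2 level minus the mean of the 3 embryos was taken over rows of mean 10 CPM or more, and the same median over all 11064 rows was subtracted. Maternal and pluripotency rows had -0.19, -0.05 and 0.19 in embryos 1 to 3. Endoderm rows had 0.06, 0.18 and -0.22, and non-neural ectoderm rows had 0.05, 0.19 and -0.22. Embryo 3 thus had the highest position in the maternal and pluripotency list and the lowest in the endoderm and non-neural ectoderm lists. Germ plasm and germ cell rows had -0.02, 0.09 and -0.08, lowest in embryo 3. Bmp rows had -0.08, 0.20 and -0.10, and organizer rows had -0.13, 0.08 and 0.01. Fgf rows stayed within -0.02 and 0.03.

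In the endoderm and non-neural ectoderm lists, embryo 3 was the lowest for most rows on library totals and on TMM library sizes. Of 29 endoderm rows, 17 were lowest in embryo 3 and 19 on TMM library sizes, beside 28.5% and 39.3% of all rows. Of 31 non-neural ectoderm rows, 17 and 19 were. Not every list kept its order. Of 39 Bmp rows, 22 were lowest in embryo 1 and 11 in embryo 3, beside 39.5% and 28.5% of all rows. On TMM library sizes these counts were 16 and 19, beside 38.9% and 39.3%. Members of a list are not independent, and each embryo is 1 library, so these positions describe the embryos and carry no test. The part in them of developmental age, clutch or library composition was not tested.

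**Figure D5:**
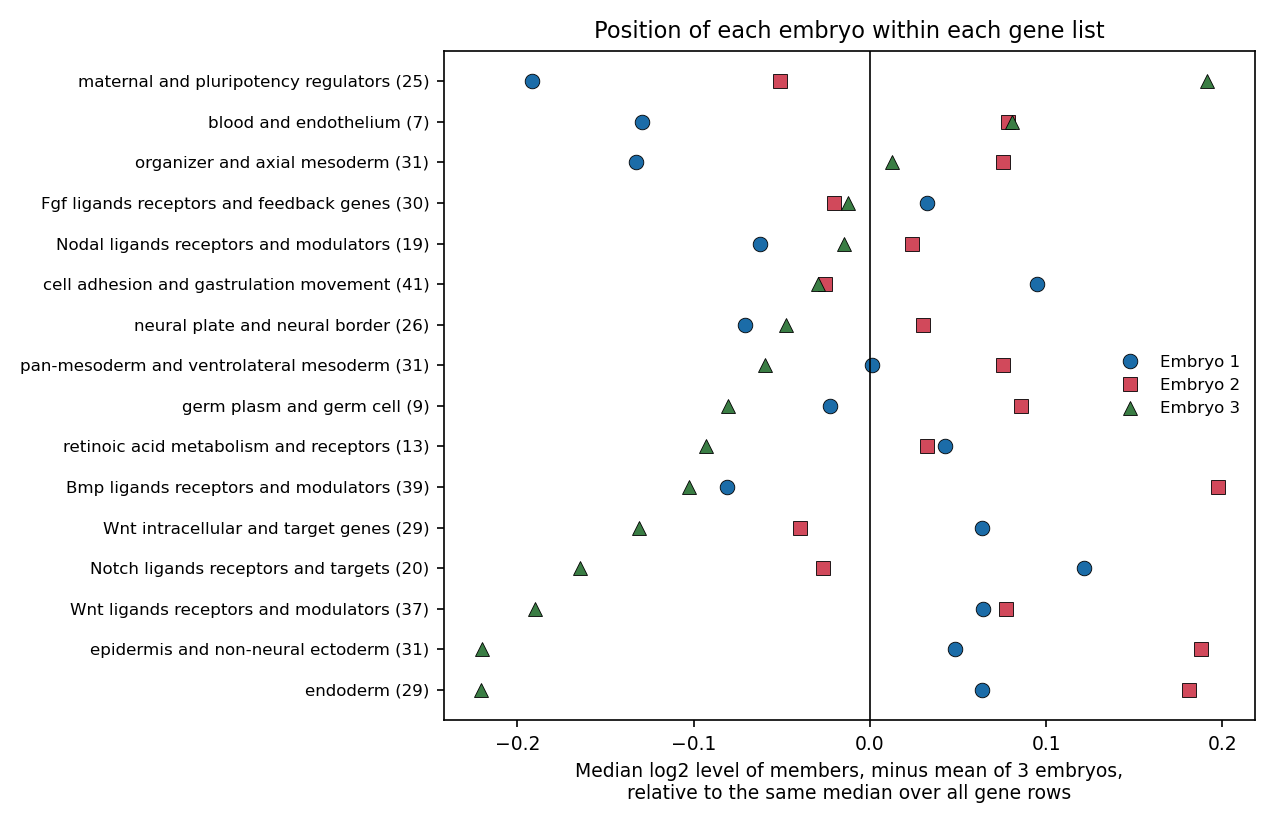
Median log2 level of the members of each list in each embryo, relative to the mean of the 3 embryos and to the same median over all rows, with the number of rows of mean 10 CPM or more in brackets. Maternal and pluripotency rows run from -0.19 in embryo 1 to 0.19 in embryo 3, and endoderm rows reach -0.22 in embryo 3.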

How the data were processed

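Polyadenylated RNA of 3 uninjected whole embryos was sequenced, 1 embryo per library, with the Illumina TruSeq RNA kit per the labels' protocols. The authors deposited raw read counts per gene row, with no normalization. Per the submitters' processing notes, HTSeq, SAMtools and TopHat2 were used; versions, settings, strandedness, genome build and annotation were not given in the sources used here. Unassigned reads did not enter library sizes: of all counted reads, 7.58% to 8.80% lay outside genes, 2.03% to 2.14% were ambiguous and 15.9% to 17.4% had several alignments, so near-identical copies may lose reads, and overlapping or antisense genes are uncertain. Of 45099 rows, 27773 had only an identifier, and 12007 matched a RefSeq symbol (assembly Xenopus_laevis_v10.1, for names only). The dkk embryos and the authors' table of their own comparison were not used here.

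CPM was the count over the library's reads in gene rows. Ratios of highest to lowest embryo had a floor of 3 reads and were counted and summarised over rows of mean 10 CPM or more. The chi-square test of Poisson homogeneity had 2 degrees of freedom and was tested on simulated data, as was the dispersion estimate. TMM factors (0.990, 0.946 and 1.07), filterByExpr and the common dispersion came from edgeR 4.0.16, and size factors from DESeq2 1.42.0, in R 4.3.3. Other steps used Python 3.11.15, numpy 2.4.6, pandas 2.3.3 and scipy 1.17.1. Embryos were 1 group and replicates were the embryos, so no groups were tested against each other. The bound of 3 reads for a row without reads covers counting error only.

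Members and the 18 lists were chosen with earlier results of these data known. Rows were named by rule: the 15 with most reads, up to 6 with most reads and up to 3 with the widest ratio in each list, key markers under 1 CPM, the 10 symbol rows with the widest ratio, the 5 most even ones, and both copies of each. Some rows that the rule named are not reported here. Other rows were named for their role after their values were seen. Alternatives were TMM and DESeq2 scaling, other floors, filters and fold bounds, summed copies and each embryo left out.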

Additional observations from a re-analysis of the deposited data

How the results depend on the processing

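Leaving out each embryo in turn gave 664 to 1370 rows over 2-fold, 12 to 30 listed rows over 2-fold and a common biological coefficient of variation of 0.287 to 0.344, beside 1837, 41 and 0.310 with all 3. By construction, 2 embryos give fewer rows over 2-fold than 3. A mean of 1 CPM or more in place of 10 gave 5471 rows and 116 listed rows over 2-fold, and a bound of 1.5-fold gave 4901 and 137. With L and S copies summed, 300 listed genes reached 1 CPM, beside 494 rows, since 2 rows became 1. The 50 rows with most reads held 11% of reads, beside 3.46% for 10 rows. The coefficient of variation was 0.313 on library totals, 0.398 without a filter and 0.366 with a mean of 1 CPM or more, and the cause was not tested. Over all gene rows, counts of rows at 1 CPM, and of rows beyond counting error, stayed within 1.5 times under every setting run. Of 306 counts for single lists, 202 stayed within 1.5 times and 104 did not. In settings added after the data were seen, the mean CPM of the 170 rows named by rule moved by less than 1 SD, and by at most 1.05 times, on TMM library sizes and DESeq2 size factors. Leaving out 1 embryo lowered the mean of 15 of them by over 1.5 times. Without embryo 1 these were kremen2.L, myh6.S, col18a1.S, nt5c1a.S, agmo.L and map3k15.L, by up to 2.93 times. Without embryo 2 they were itln1.L, ddx25.L, dazl.L, ckm.L, nid1.S, gip.S, angpt4.S, tmem55a.L and casp10.L, by up to 3.58 times. These counts, shares and means have no direction that could reverse. The highest or lowest embryo of single rows did change with the scaling for some rows. For aldh1a2.L, embryo 3 was highest and embryo 1 lowest by CPM. On TMM library sizes embryo 2 was highest and embryo 3 lowest.

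No paired analysis was possible because only uninjected embryos were used and no groups were compared. Levels per kilobase, with their alternative by coding length, were not run without transcript lengths, and no row was named as mitochondrial to be left out. Depth limits rows near 1 CPM, where 1 read is 0.0513 to 0.0573 CPM, and 1 uninjected embryo per mating limits every statement on spread.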

Other observations

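Gene classes taken by symbol prefix held small shares of the reads. Rows of translation factors (eef and eif) took 1.18%, 1.25% and 1.14% of reads in embryos 1, 2 and 3, DEAD-box helicases 0.942%, 0.847% and 0.773%, and tubulins 0.270%, 0.290% and 0.273%. Keratin rows took 0.671%, 0.701% and 0.521%, and zinc finger rows named znf 0.688%, 0.572% and 0.513%, both with the least in embryo 3. Proteasome rows took 0.329%, 0.395% and 0.408%, with the least in embryo 1.

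Some rows were nearly all or none. A choice made after the values were seen, at most 3 reads in 1 embryo and 10 CPM or more in another, held 38 rows, 29 of them with only an identifier. The nuclear gene morc1.S had 24.5, 0.0513 and 0.266 CPM in embryos 1, 2 and 3, and the muscle gene myot.L had 21.2, 0.154 and 0.0533 CPM. The calcium-binding gene scgn.L had 0.0573, 21.3 and 0 CPM, and the matrix gene postn.L had 0.344, 19.1 and 0 CPM. The nuclear receptor gene hnf4g.L had 0, 11.5 and 0.0533 CPM, and cd38.L had 0.0573, 0 and 11.1 CPM. At most 3 reads in a single embryo were found for 11 rows in embryo 1, 5 in embryo 2 and 9 in embryo 3. The other 13 rows had at most 3 reads in 2 embryos.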
